A study of Mus musculus with 4 samples.

Results

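Oral vancomycin was set directly against oral ampicillin by the bacteria of mouse stool on day 4 of treatment. The comparison used 11 of the 198 fecal 16S rRNA gene libraries of the study, 6 from mice given vancomycin and 5 from mice given ampicillin, picked by the antibiotic, route and day entered in the sample sheets that the authors deposited. All mice were WT C57BL6/J animals of 8 to 12 weeks, bred under specific-pathogen-free (SPF) conditions and assigned to groups at random. Each dose was 2.5 mg of 1 antibiotic in 100 µl of phosphate-buffered saline (PBS), delivered by oral gavage 2 times a day over 3 days with a last dose on day 4, and the mice were killed 4 hours later. A further 5 libraries from mice gavaged with PBS alone gave the level without antibiotic. The study also tested metronidazole, neomycin and a mix of all 4 antibiotics, as well as intraperitoneal and intravenous injection, and sampled stool on day 0. By the sample names each library came from a different mouse, and the sources used here do not state sex, cage or litter.

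Both drugs act on the bacterial cell wall. Vancomycin is a glycopeptide that binds the ends of peptidoglycan precursors. It is too large to cross the outer membrane of most Gram-negative bacteria, and little of it is absorbed from the gut. Ampicillin is a beta-lactam that blocks the enzymes cross-linking peptidoglycan. It can enter many Gram-negative cells through porins, is partly absorbed, and is destroyed by beta-lactamases. Bacteria that make no peptidoglycan wall lack the target of either drug.

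Libraries held 1151 to 20443 reads with vancomycin, 6234 to 28586 with ampicillin and 18152 to 64482 with PBS. Of the ampicillin libraries, 2 stood apart because Burkholderia, an environmental genus also known from laboratory reagents, filled them: replicate 3 with 89.0% and replicate 5 with 96.6% of reads. What remained was 685 reads in replicate 3 and 803 reads in replicate 5. Most comparisons are therefore given over all reads and again with Burkholderia removed and the rest rescaled to 100%, and where it matters also without these 2 libraries. All vancomycin and PBS libraries and ampicillin replicates 1, 2 and 3 were sequenced in run ok122, whereas ampicillin replicates 4 and 5 were in run SB1, so each run held 1 of the Burkholderia-filled libraries. The protocols name 2 DNA extraction kits without saying which served which library. Vancomycin replicate 4, the shallowest library with 1151 reads, listed 7 taxa, the rarest at 7 reads, so a 0 there bears little weight. Values are percent of reads, so that a larger share of 1 genus and a loss of all others cannot be told apart.

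The reads of vancomycin libraries were mainly Escherichia and Borkfalkia. Those of ampicillin libraries were mainly Borkfalkia, with or without an unclassified genus of the family CAG-552, or mainly Burkholderia. Escherichia_710834 and Borkfalkia together made up 86.8%, 94.3%, 78.2%, 41.6%, 87.0% and 79.6% of reads in vancomycin replicates 1 to 6. Borkfalkia and unclassified CAG-552 together made up 85.8%, 90.1%, 2.29%, 93.2% and 0% in ampicillin replicates 1 to 5. With vancomycin 3 to 5 genera reached 1% of reads and with ampicillin 1 to 4, against 10 to 14 with PBS, where no genus exceeded 30.3%. The share of Bacteroidota, the phylum that dominates untreated mouse stool, was 0.710% ± 0.910 (SD, n = 6) with vancomycin and 3.42% ± 2.67 (n = 5) with ampicillin, against 85.4% ± 11 (n = 5) with PBS.

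**Figure D1:**
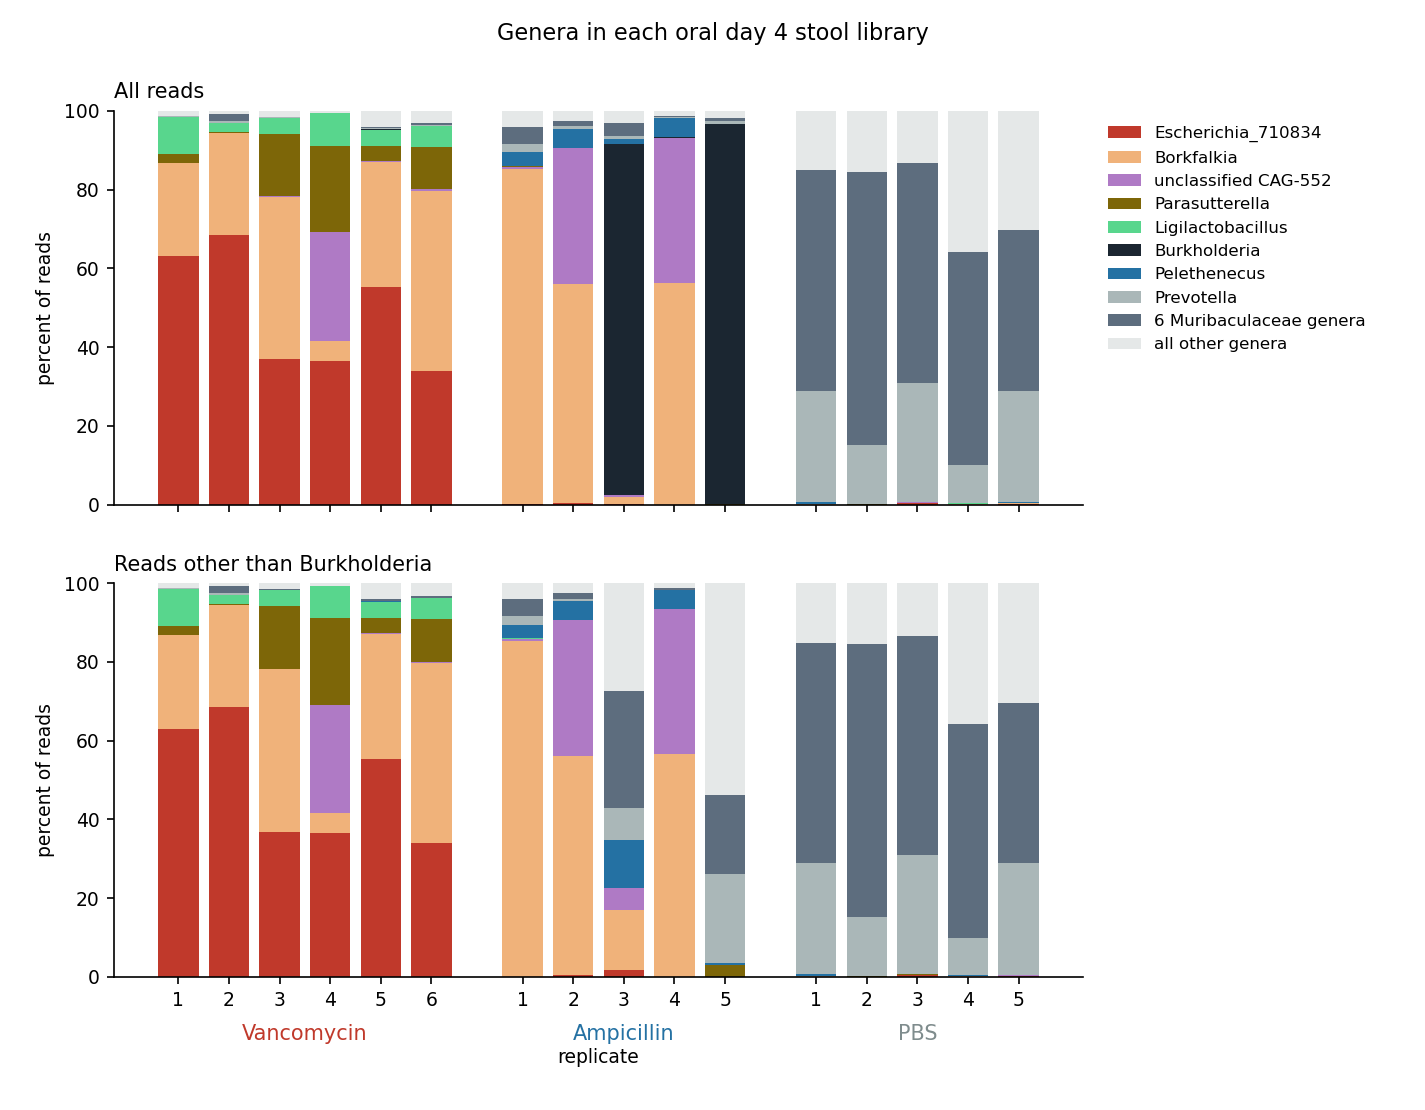
Percent of reads by genus in each day 4 stool library of mice gavaged with vancomycin (6 mice), ampicillin (5) or PBS (5), over all reads (top) and after removal of Burkholderia (bottom); each bar is 1 mouse. Escherichia_710834 holds 34.0% to 68.6% of every vancomycin bar and at most 0.392% of any ampicillin bar in the top panel, and the dark Burkholderia bars are ampicillin replicates 3 and 5.

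Across genera, differences were tested with limma on log2(percent + 0.01), a scale on which changes of rare genera are understated, in a single fit of all day 4 groups, with Benjamini-Hochberg adjustment and an adjusted p of 0.05 as the threshold. Over all reads 10 of 95 genera passed (10.5%), of which 5 were higher (5.26%) and 5 lower (5.26%) with vancomycin than with ampicillin. Of the 95 genera, 33 were at 0 in all 11 libraries, and 17 had an unadjusted p under 0.05. In 4 of the 10 genera the vancomycin and ampicillin samples did not overlap. Overlap was counted among these 10 only, so no share over all 95 genera stands beside it. With an exact permutation test per genus in place of limma, 0 of 95 genera passed (14 at an unadjusted p under 0.05). The smallest p that 6 against 5 samples allow is 0.00216, and the lowest adjusted p was 0.0685. Escherichia_710834, Ligilactobacillus and Desulfovibrio_R_446353 reached that smallest p. Mucispirillum, which passed in limma, had an unadjusted exact permutation p of 0.106.

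Among the genera that were higher with vancomycin, 3 are Gram-negative genera of the Proteobacteria and Desulfobacterota. Escherichia_710834, a facultative anaerobe of the Enterobacteriaceae, ranged from 34.0% to 68.6% with a median of 46.0% in the 6 vancomycin samples, against 0.0461%, 0.392%, 0.192%, 0% and 0% in ampicillin replicates 1 to 5. Every vancomycin sample lay above every ampicillin sample, and the log2 difference was 9.77 (SE 1.56, adjusted p = 4.62e-07). The genus was at 0 in 3 of 5 PBS samples and reached 0.333% in another. All Escherichia reads belonged to 1 taxon without a species name.

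Parasutterella, an asaccharolytic anaerobe of the Burkholderiales found in mouse and human gut, held 0.187% to 21.9% with a median of 7.23% in vancomycin samples, against 0.107%, 0%, 0%, 0% and 0.107% in ampicillin samples. The groups did not overlap, although vancomycin replicate 2, at 0.187%, came close to the ampicillin values (log2 difference 7.33, SE 1.17, adjusted p = 4.62e-07). In vancomycin stool the genus was split between Parasutterella sp009767915, at a mean of 5.53%, and a taxon without a species name, at 3.60%, and both were above 0 in 6 of 6 samples. In the deposited taxonomy Parasutterella belongs to Burkholderiaceae_A_595427 and Burkholderia to Burkholderiaceae_A_580492, so the 2 genera are in separate families here.

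Desulfovibrio_R_446353, of the sulfate-reducing Desulfovibrionaceae, was present in 6 of 6 vancomycin samples at 0.0980% to 0.608% (median 0.406%), whereas ampicillin samples held 0%, 0.0140%, 0.0481%, 0% and 0%. The groups did not overlap (log2 difference 4.18, SE 0.76, adjusted p = 1.07e-05). PBS samples spanned 0.0244% to 0.625%, so that the genus level with vancomycin lay within the PBS range, but the taxa behind it differed. A taxon without a species name held the vancomycin reads, at 0.0980% to 0.608%, and reached at most 0.0182% in PBS samples. That taxon was at 0 in all ampicillin samples. Without Burkholderia, Desulfovibrio_R_446353 trichonymphae was at 0 in all vancomycin samples, above 0 in 2 ampicillin samples and at 0.0244% to 0.614% with PBS. Before treatment the genus averaged 0.361% ± 0.250 (SD, n = 6) in the vancomycin mice and 0.158% ± 0.264 (n = 5) in the ampicillin mice, and as a change from day 0 of the same mouse the log2 difference was 1.80 (limma adjusted p = 0.683). Of the 4 tested genera on the list of other gut Proteobacteria and Desulfobacterota, Parasutterella and Desulfovibrio_R_446353 were higher (5.26% of all genera were) and 0 were lower, with a median log2 difference of 2.09 beside -0.24 over all 95 genera. Bilophila, of the same list, was at 0 with vancomycin and at 0.0102% in 1 ampicillin sample.

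The other genera that were higher with vancomycin were Ligilactobacillus, a Gram-positive lactic acid bacterium, and Mucispirillum, a Gram-negative spiral bacterium of the mucus layer. Ligilactobacillus held 2.40% to 9.39% with a median of 4.72% in vancomycin samples, against 0.0563%, 0.00700%, 0%, 0% and 0% in ampicillin samples. This was the clearest separation relative to its error (log2 difference 8.29, SE 1.0, adjusted p = 1.44e-10), and the groups did not overlap. Lactobacillus, of the same family, was at 0 in 6 of 6 vancomycin samples and in 4 of 5 ampicillin samples. Limosilactobacillus was above 0 in 3 vancomycin samples, at no more than 0.0557%, and in 0 ampicillin samples, and did not pass (log2 difference 1.06, limma adjusted p = 0.311). Of the 4 lactic acid genera tested, 1 was higher, where 5.26% of all genera were, and 0 were lower, with a median log2 difference of 0.53 beside -0.24 over all 95 genera.

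Mucispirillum schaedleri, the only Mucispirillum taxon in these samples, was found in 4 of 6 vancomycin samples, at 0.0304%, 1.28%, 0.436% and 2.39%, and was at 0 in all 5 ampicillin samples, where 3 reads would have been 0.0105% to 0.0481%. Over all reads the vancomycin mean of 0.688% was at least 30.6-fold higher than the mean of those limits (limma adjusted p = 0.00769). Without vancomycin replicate 6 it was at least 15.5-fold higher. Those limits count the Burkholderia reads of ampicillin replicates 3 and 5. Of reads other than Burkholderia, a 0 there allowed up to 0.438% in replicate 3 and 0.374% in replicate 5, so the bounds hold over all reads only. The call was lost without vancomycin replicate 3 (adjusted p = 0.0621) or replicate 6 (adjusted p = 0.0786), and the groups overlapped at 0. On day 0 the genus had averaged 1.11% in the vancomycin mice and 0.922% in the ampicillin mice. As a change from day 0 within the mouse, the log2 difference was 1.28 and did not pass (limma adjusted p = 0.94).

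**Figure D2:**
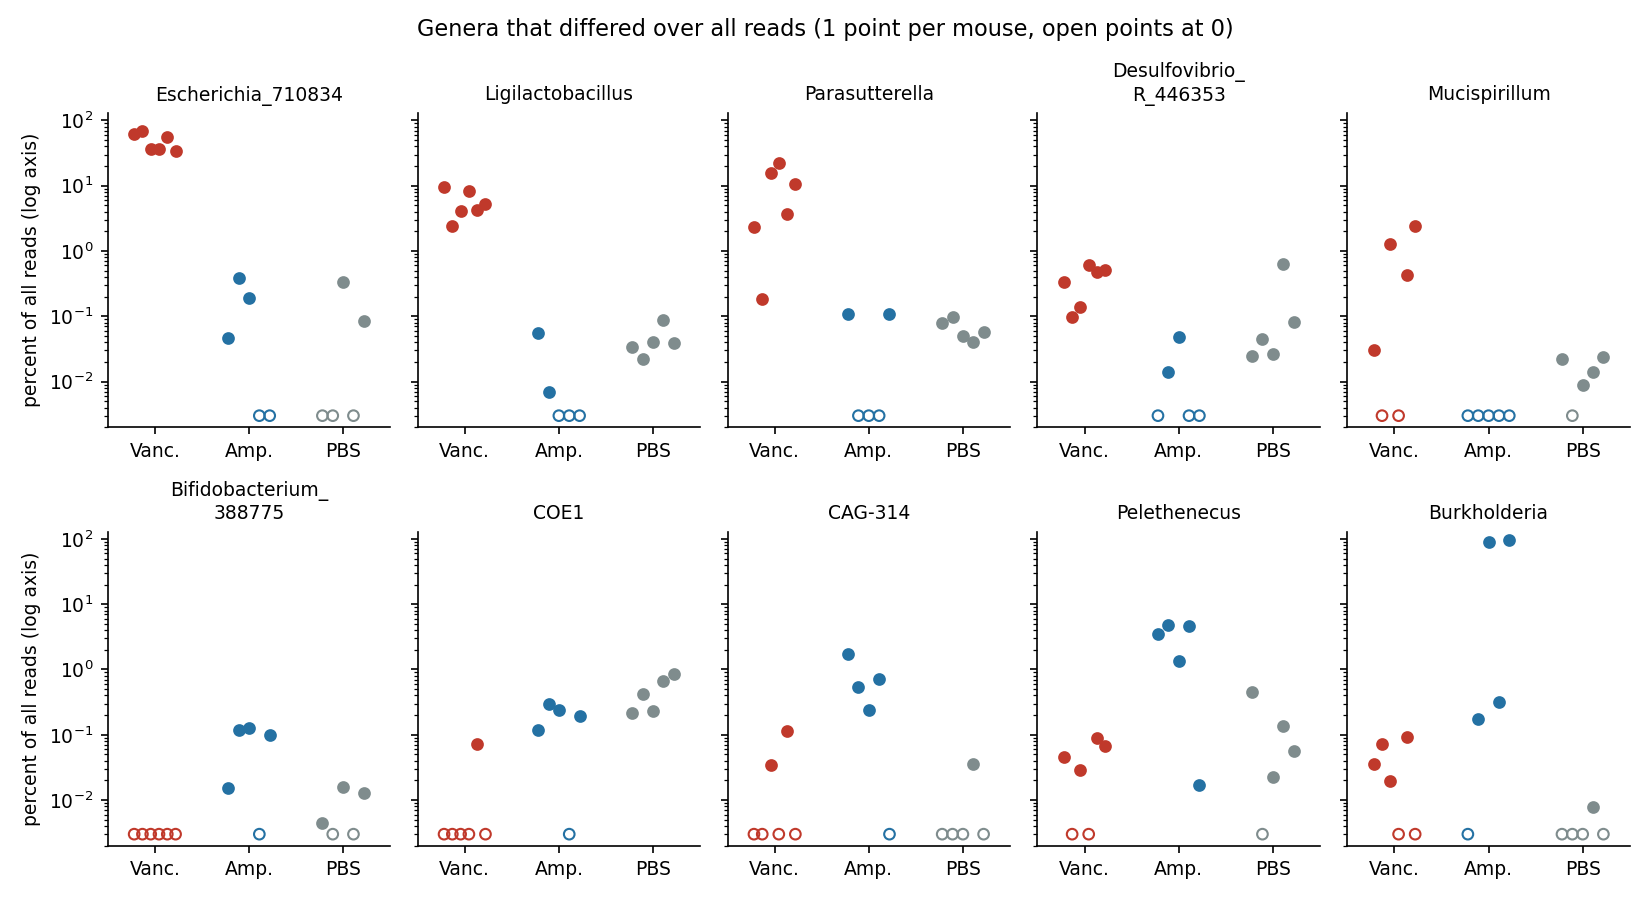
Percent of all reads, on a log axis, of the 10 genera that passed the test over all reads, in vancomycin, ampicillin and PBS mice (1 point per mouse, open points at 0). The upper row holds the 5 genera that were higher with vancomycin, led by Escherichia_710834, and the lower row the 5 that were lower, where Burkholderia shows 2 ampicillin mice near the top of the axis and 3 below 1%.

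Apart from Burkholderia, Pelethenecus had the most negative log2 difference of the genera that passed over all reads. It belongs to the Anaeroplasmataceae, a family named for Anaeroplasma, which makes no cell wall. Pelethenecus was at 0% to 0.0881% in vancomycin samples (median 0.0375%), compared with 3.50%, 4.84%, 1.33%, 4.66% and 0.0171% in ampicillin samples (log2 difference -5.17, SE 1.02, adjusted p = 4.78e-05). Over all reads ampicillin replicate 5, filled by Burkholderia, fell within the vancomycin range. Without Burkholderia that sample held 0.498%, the groups did not overlap, and the log2 difference was -6.65 (adjusted p = 6.54e-07). PBS samples held at most 0.459%, and the ampicillin mean was 4.18 higher on the log2 scale than the PBS mean (adjusted p = 0.000891). Of 3 tested genera on the list of Bacilli without a cell wall, Pelethenecus was the 1 that was lower, where 5.26% of all genera were, and the list's median log2 difference was 0.00 beside -0.24 over all genera.

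CAG-314, an uncultured lineage that the table places in a family of the same name, was at 0 in 4 of 6 vancomycin samples and at most 0.114%. In ampicillin replicates 1 to 4 it held 1.70%, 0.539%, 0.241% and 0.706%, and it was at 0 in replicate 5 (log2 difference -3.84, SE 1.06, adjusted p = 0.0061). The call was lost without ampicillin replicate 1 (adjusted p = 0.0531). Bifidobacterium_388775, a Gram-positive saccharolytic genus, was at 0 in 6 of 6 vancomycin samples and above 0 in 4 of 5 ampicillin samples, at up to 0.128% (limma adjusted p = 0.00219). Because 3 reads in the vancomycin libraries averaged 0.0723% and the ampicillin mean was 0.0722%, no fold difference can be given for it over all reads. Without Burkholderia the ampicillin mean was 0.833%, and vancomycin was at least 11.5-fold lower. That mean rested on replicate 3, at 1.17% from 8 reads, and replicate 5, at 2.86% from 23 reads. The bound was 4.5-fold without replicate 5. Without both no bound could be given, and the call was lost (log2 difference -1.68, adjusted p = 0.177 over all reads and 0.391 without Burkholderia). All Actinobacteriota together, the phylum of Bifidobacterium, were likewise at 0 in every vancomycin sample and at 0.0358% to 0.128% in every ampicillin sample, and 1 of 2 tested genera was lower, where 5.26% of all genera were (median log2 difference -1.23 beside -0.24). In vancomycin replicate 4 the limit of 3 reads was 0.261%, above these ampicillin values.

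COE1, of the Lachnospiraceae, a family with many butyrate producers, was above 0 in 1 of 6 vancomycin samples, at 0.0726%, and in 4 of 5 ampicillin samples, at 0.118% to 0.294%. Its log2 difference of -3.01 barely passed (limma adjusted p = 0.0398). The call was lost when any 1 of 9 of the 11 samples was left out, and it was kept without vancomycin replicate 5 or ampicillin replicate 4. COE1 had averaged 2.75% on day 0 in the vancomycin mice and 3.93% in the ampicillin mice.

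Burkholderia was the last of the 5 genera that were lower with vancomycin, and it was unlike the others. It held 0.0355%, 0.0713%, 0.0196%, 0%, 0.0933% and 0% in vancomycin replicates 1 to 6, against 0%, 0.171%, 89.0%, 0.323% and 96.6% in ampicillin replicates 1 to 5. All of its reads were 1 taxon without a species name. The fit gave a log2 difference of -5.43 (SE 1.22, adjusted p = 0.000427), but without ampicillin replicates 3 and 5 it was -1.39 (adjusted p = 0.929). A fit of the vancomycin and ampicillin groups alone did not pass either (adjusted p = 0.192). Other genera on the list of reagent, skin and food bacteria held 0% to 0.202% in vancomycin samples and 0% to 0.00856% in ampicillin samples. Of these, Staphylococcus was present in 4 vancomycin samples and in 0 ampicillin samples. Reagents and the 2 runs were not tested as sources of Burkholderia.

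With Burkholderia removed, 14 of 94 genera passed (14.9%), and 25 had an unadjusted p under 0.05. The 5 higher genera (5.32%) were those found over all reads, and 9 were lower (9.57%). Escherichia_710834 had a log2 difference of 9.15 (SE 1.59), Ligilactobacillus 8.29 (SE 1.07), Parasutterella 6.39 (SE 1.28), Mucispirillum 3.73 (SE 1.08) and Desulfovibrio_R_446353 3.59 (SE 0.90). Pelethenecus, CAG-314, Bifidobacterium_388775 and COE1 were again lower. Parasutterella and Desulfovibrio_R_446353 now overlapped between groups, because ampicillin replicate 5 rescaled to 3.11% Parasutterella and ampicillin replicate 3 to 0.438% Desulfovibrio_R_446353. That 0.438% was Desulfovibrio_R_446353 trichonymphae, which was at 0 in all vancomycin samples. The Desulfovibrio_R_446353 taxon without a species name, at 0.0980% to 0.608% with vancomycin, was at 0 in all ampicillin samples, which removing Burkholderia cannot change. In this composition a 0 allowed up to 0.438% in ampicillin replicate 3 and 0.374% in replicate 5, both within the vancomycin range.

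The other 5 lower genera were obligate anaerobes that PBS stool also held, though not in every taxon, and they had not passed over all reads. They were Muribaculum (log2 difference -4.99, adjusted p = 0.00285) and UBA7173 (-4.73, adjusted p = 0.00696) of the Muribaculaceae, a family of mouse gut anaerobes that degrade complex carbohydrates, Bacteroides_H (-4.74, adjusted p = 0.00646) and Prevotella (-4.54, adjusted p = 0.00603) of the Bacteroidaceae, and unclassified Lachnospiraceae (-4.68, adjusted p = 0.0106). Prevotella was at 0% to 0.401% in vancomycin samples (median 0.118%), against 2.27%, 0.592%, 8.18%, 0.213% and 22.5% in ampicillin replicates 1 to 5 without Burkholderia. In replicate 5, 13.4% was Prevotella sp004792655, which was at 0 in all vancomycin and PBS samples. Prevotella sp902776665, at a mean of 22.3% with PBS, reached at most 9.09% in ampicillin samples. Bacteroides_H helcogenes, also at 0 in all vancomycin and PBS samples, held 2.12% in 1 ampicillin sample. The highest Prevotella values were those of replicates 3 and 5.

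Muribaculum showed the same split among ampicillin samples. It was at 0 in 4 of 6 vancomycin samples and at most 0.258%, against 0.542%, 0.399%, 7.59%, 0.128% and 1.12% in ampicillin samples. Unclassified Lachnospiraceae was at most 0.0675% with vancomycin and reached 12.2% in ampicillin replicate 5. When ampicillin replicates 3 and 5 were left out, 9 genera passed in each of the 2 compositions, 5 higher and 4 lower. The 5 higher genera and Pelethenecus and CAG-314 were kept, and none of the 5 added anaerobes passed in either. Without Burkholderia their log2 differences were then -3.70 for Muribaculum (SE 1.51, adjusted p = 0.156), -3.49 for Bacteroides_H (SE 1.56, adjusted p = 0.240), -2.81 for Prevotella (SE 1.46, adjusted p = 0.391), -2.75 for UBA7173 (SE 1.57, adjusted p = 0.495) and -2.39 for unclassified Lachnospiraceae (SE 1.61, adjusted p = 0.700). With all libraries and over all reads they were -3.44 for Muribaculum, -3.19 for Bacteroides_H, -2.94 for Prevotella, -3.13 for UBA7173 and -3.09 for unclassified Lachnospiraceae, and all remained negative. Leaving out ampicillin replicate 3 alone was enough to lose UBA7173 (adjusted p = 0.0553), leaving out replicate 5 alone was enough to lose Bacteroides_H (adjusted p = 0.0506), and leaving out either lost unclassified Lachnospiraceae.

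Further Bacteroidales genera held 1% or more on average with ampicillin only after Burkholderia was removed, and none passed. CAG-485 was at 0% to 0.330% in vancomycin samples (median 0.0127%), against 0.988%, 0.126%, 2.63%, 0% and 5.23% in ampicillin replicates 1 to 5 without Burkholderia (log2 difference -3.87, adjusted p = 0.0575). Duncaniella was at 0% to 0.481% in vancomycin samples (median 0.128%), against 0.942%, 0.582%, 0.876%, 0.128% and 5.11% in ampicillin samples (-3.49, adjusted p = 0.0803). Replicate 5 was the highest ampicillin sample for both. Paramuribaculum, like these a genus of the Muribaculaceae, was at 0% to 0.294% in vancomycin samples, against 0% to 4.67% in ampicillin samples with the highest value in replicate 3 (-3.16, adjusted p = 0.0803). Unclassified Muribaculaceae were at 0% to 0.401% in vancomycin samples, against 0% to 5.11% in ampicillin samples, again highest in replicate 3 (-3.23, adjusted p = 0.0803). Odoribacter_865974, of the Marinifilaceae, was at 0.0445% in vancomycin replicate 2 and at 0 in the others, whereas ampicillin replicate 5 held 5.48%. Over all reads these 5 genera had log2 differences of -2.28 to -1.33, with adjusted p of at least 0.577.

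Blautia_A_141781, a Lachnospiraceae genus present in too few day 4 samples to be tested, was at 0 in 6 of 6 vancomycin samples. In ampicillin replicates 1 to 5 it held 0.0307%, 0.0455%, 0.369%, 0% and 0.0942% of all reads. Vancomycin was at least 1.49-fold lower over all reads and at least 17.1-fold lower without Burkholderia, and no bound could be given over all reads without ampicillin replicate 3 or in either composition without replicates 3 and 5. Without Burkholderia the bound was 9.74-fold without replicate 3. The genus was at 0 in all PBS samples.

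**Figure D3:**
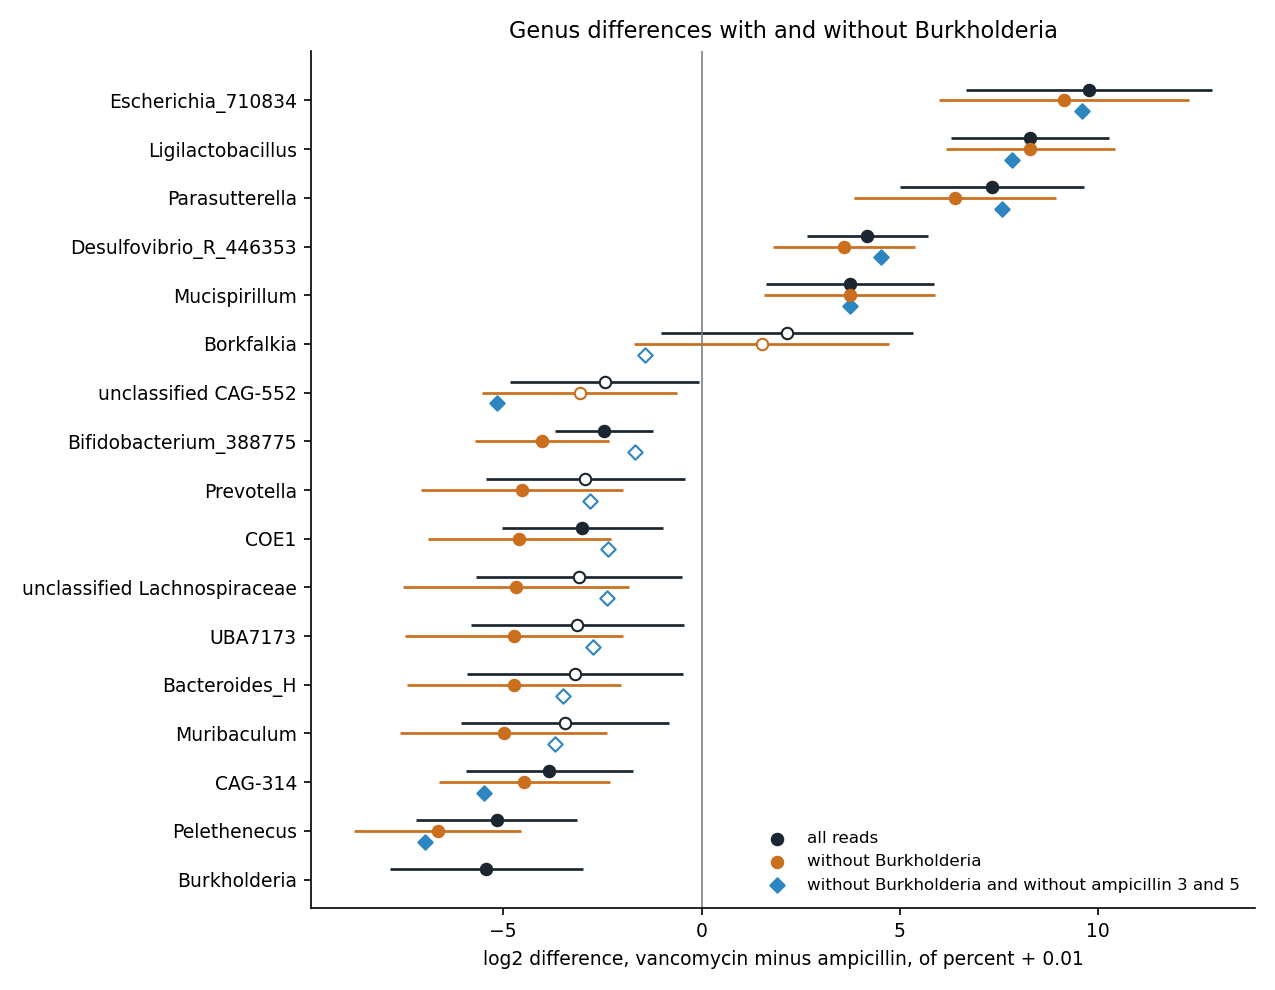
Log2 difference of percent + 0.01, vancomycin minus ampicillin, for the 15 genera that passed in either composition and for Borkfalkia and unclassified CAG-552; lines are 95% confidence intervals, filled symbols passed the threshold, and diamonds leave out ampicillin replicates 3 and 5. The upper 5 genera stay at 3.59 or above in all 3 versions, whereas Prevotella, Muribaculum and the other added anaerobes are filled in 1 version only, and Burkholderia has a value over all reads only.

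Borkfalkia and unclassified CAG-552, both Clostridia known mainly from genomes, were abundant with both drugs. Borkfalkia ranged from 5.13% to 45.6% with a median of 28.8% in vancomycin samples, against 85.2%, 55.6%, 1.67%, 56.4% and 0% in ampicillin samples. The 3 ampicillin samples without much Burkholderia were above every vancomycin sample, and the 2 others were below. The difference did not pass (log2 difference 2.16, 95% confidence interval -1.03 to 5.34, limma adjusted p = 0.752), and without ampicillin replicates 3 and 5 it was -1.43 (adjusted p = 1). The log2 difference was thus positive while the mean was 28.9% ± 14.5 (SD, n = 6) with vancomycin and 39.8% ± 37.5 (n = 5) with ampicillin, as the log scale gives the ampicillin sample at 0 more weight.

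Unclassified CAG-552 was abundant in single mice of either group. It held 27.5% in vancomycin replicate 4 and at most 0.471% in the other vancomycin samples, against 0.522%, 34.5%, 0.626%, 36.8% and 0% in ampicillin samples. Vancomycin replicate 4 is also the library with the fewest reads, 1151, and the lowest Borkfalkia share. The difference did not pass over all reads (log2 difference -2.44, 95% confidence interval -4.82 to -0.05, limma adjusted p = 0.253). It passed without ampicillin replicates 3 and 5 (-5.15, adjusted p = 0.00121), without ampicillin replicate 5 alone (-4.20, adjusted p = 0.00663) and without vancomycin replicate 4 (-3.8, adjusted p = 0.0148). Without Burkholderia the log2 difference was -3.07 (95% confidence interval -5.53 to -0.61, adjusted p = 0.0803). The family CAG-552, of which this genus is the abundant member, did pass there (adjusted p = 0.0430, against 0.126 over all reads), and lost the call when ampicillin replicate 2, 3 or 4 or vancomycin replicate 1, 2, 3 or 5 was left out. These were the 2 tested genera of their list, with a median log2 difference of -0.14.

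Families were tested in the same way. Over all reads 13 of 39 families passed (33.3%), 6 higher (15.4%) and 7 lower (17.9%) with vancomycin, and without Burkholderia 15 of 38 did (39.5%), 6 higher (15.8%) and 9 lower (23.7%). The higher families were Enterobacteriaceae_A, Lactobacillaceae, Burkholderiaceae_A_595427 (the family of Parasutterella), Desulfovibrionaceae, Mucispirillaceae and Staphylococcaceae (log2 difference 2.01, adjusted p = 0.0312), the last of which lost its call over all reads without any 1 of 6 samples. Lachnospiraceae as a family were lower over all reads too, with a log2 difference of -3.73 (adjusted p = 0.0261). Their summed genera held 0% to 0.140% in vancomycin samples, against 0.860%, 0.885%, 1.14%, 0.0255% and 1.0% in ampicillin samples, so that ampicillin replicate 4 overlapped with the vancomycin samples. The call was lost without ampicillin replicate 1, 2 or 3 or vancomycin replicate 3 or 4 (adjusted p up to 0.0628).

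The other families that were lower over all reads were Anaeroplasmataceae (log2 difference -5.17, adjusted p = 3.37e-05), CAG-314 (-3.84, adjusted p = 0.00293), Bifidobacteriaceae (-2.45, adjusted p = 0.000966), Burkholderiaceae_A_580492, the family of Burkholderia (-5.43, adjusted p = 0.000208), Bacteroidaceae (-3.15, adjusted p = 0.0287) and unclassified Christensenellales (-1.63, adjusted p = 0.0496). Unclassified Christensenellales were at 0 in all vancomycin samples and above 0 in 2 ampicillin samples, and lost the call without ampicillin replicate 2 or 4 or any 1 vancomycin sample. Bacteroidaceae lost it over all reads without ampicillin replicate 1 or vancomycin replicate 3 or 4 (adjusted p up to 0.113). Those lower without Burkholderia were the same families apart from Burkholderiaceae_A_580492, and in addition Muribaculaceae, Oscillospiraceae_88309 and CAG-552. When ampicillin replicates 3 and 5 were left out, Bacteroidaceae (-3.09, adjusted p = 0.0801 over all reads), Lachnospiraceae (-3.00, adjusted p = 0.147), Bifidobacteriaceae, Staphylococcaceae, Muribaculaceae and Oscillospiraceae_88309 passed in neither composition. Burkholderiaceae_A_580492 then had a log2 difference of -1.39 (adjusted p = 0.463). Anaeroplasmataceae, CAG-314 and unclassified Christensenellales still passed, and CAG-552 did in both compositions (-5.15, adjusted p = 0.000684 over all reads). Borkfalkiaceae and Marinifilaceae also averaged 1% or more and did not pass in either composition.

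Muribaculaceae as a family did not pass over all reads (log2 difference -2.88, limma adjusted p = 0.0642) and passed without Burkholderia (-4.49, adjusted p = 0.0026). Of the 8 Muribaculaceae genera, 0 were called over all reads and 2 were lower without Burkholderia, with median log2 differences of -1.82 and -3.36, beside -0.24 and -0.40 over all genera tested. In all, 5.26% of genera were lower over all reads and 9.57% without Burkholderia. Of the 8 genera of other Bacteroidales families, 0 were called over all reads and 2 were lower without Burkholderia (medians -1.19 and -2.41), and Bacteroidaceae as a family passed in both (-4.76, adjusted p = 0.000738 without Burkholderia). Of the 27 Lachnospiraceae genera, 1 was lower over all reads and 2 without Burkholderia (medians -0.37 and -0.54). None of the 14 tested genera of the Oscillospirales families was called in either composition (median -0.15 over all reads), and their sum was at 0 in 5 of 6 vancomycin samples and at 0.0255% to 0.322% in ampicillin samples. The family Oscillospiraceae_88309 passed without Burkholderia (-3.39, adjusted p = 0.0416, against 0.301 over all reads), and lost that call when any 1 of 9 of the 11 samples was left out.

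The remaining genera among the 4 most abundant of a taxon list were rare with both drugs over all reads, and those that could be tested did not pass. Parabacteroides_B_862066 held at most 0.0622% with vancomycin and 0.0642% with ampicillin, and Dysosmobacter at most 0.0445% with vancomycin and 0.0921% with ampicillin. Enterenecus was at 0 with vancomycin and reached 0.0321% with ampicillin. Present in too few samples to be tested, Proteus, Dorea_A, Gemmiger_A_73129, Mycobacterium, Corynebacterium, Ruminococcus_E, Onthocola_B, Senegalimassilia, UBA3789 and unclassified Eggerthellaceae were at 0 in all vancomycin samples. In ampicillin samples they held no more than 0.241% of all reads, the highest being Dorea_A in replicate 3. Without Burkholderia the ampicillin maximum was 2.19% for Dorea_A, 1.61% for Proteus and 0.996% for Parabacteroides_B_862066 distasonis. Unclassified Borkfalkiaceae, also untested, held 0.527% in 1 vancomycin sample and 0.0245% in 1 ampicillin sample. Another 2 untested genera, unclassified Enterobacteriaceae_A and unclassified Enterococcaceae, were each found in 1 vancomycin sample, at no more than 0.196%, and in 1 ampicillin sample at 0.0280%.

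Akkermansia, the mucin-degrading genus that stands for the Verrucomicrobiota here, did not differ beyond its spread. It reached 2.67% in vancomycin replicate 5 and at most 0.0267% in the other vancomycin samples, against 0% to 0.225% in ampicillin samples (log2 difference -0.08, 95% confidence interval -3.60 to 3.44). Without Burkholderia ampicillin replicate 3 held 2.04%, and the log2 difference of -0.71 did not pass. Erysipelotrichales were at 0 in all 11 samples, and 0 of their genera could be tested.

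The composition as a whole differed between the drugs. Bray-Curtis distance, which runs from 0 for identical to 1 for wholly different libraries, averaged 0.796 between vancomycin and ampicillin samples, compared with 0.317 among vancomycin samples and 0.667 among ampicillin samples. The share of variation between the groups (R2) was 0.412 over all reads and 0.418 without Burkholderia (exact permutation p = 0.00216 in each, the smallest possible, adjusted over 5 tests to 0.00541). Without ampicillin replicates 3 and 5 it was 0.656 in each composition (exact permutation p = 0.0119, the smallest that 6 against 3 samples allow, adjusted p = 0.0298). This test also responds to unequal scatter, and the ampicillin samples were more than 2 times as far from each other as the vancomycin samples.

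Whether stool was more diverse with vancomycin than with ampicillin depended on Burkholderia. Over all reads the Shannon index (natural log) was 1.24 ± 0.237 (SD, n = 6) with vancomycin, 0.784 ± 0.340 (n = 5) with ampicillin and 3.00 ± 0.276 (n = 5) with PBS, and the difference of 0.456 between the drugs passed (two-sided exact permutation p = 0.0238, adjusted p = 0.0298). Without Burkholderia the index was 1.24 ± 0.239 with vancomycin and 1.85 ± 1.2 with ampicillin, a difference of -0.613 that did not pass (exact permutation p = 0.348). Ampicillin replicates 3 and 5 then had indices of 3.05 and 3.26, within the PBS range, while replicates 1, 2 and 4 lay between 0.850 and 1.15. Without those 2 libraries the difference was 0.248 over all reads and 0.255 without Burkholderia (adjusted exact permutation p = 0.155 in each), and within run ok122 over all reads it was 0.343 (adjusted exact permutation p = 0.119).

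Fewer taxa were found with vancomycin at equal depth. In 600 reads other than Burkholderia, 10.9 ± 3.17 taxa (SD, n = 6) were expected with vancomycin and 27.2 ± 13.7 (n = 5) with ampicillin, against 55.2 ± 10.9 (n = 5) with PBS. Vancomycin samples ran from 6.99 to 15 taxa, and ampicillin samples held 26.1, 19.9, 36.0, 9.46 and 44.7. The difference of -16.3 taxa passed (exact permutation p = 0.0108, adjusted p = 0.0180), with ampicillin replicate 4 inside the vancomycin range. Without ampicillin replicates 3 and 5 it was -7.56 and did not pass (exact permutation p = 0.0714, adjusted p = 0.119).

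**Figure D4:**
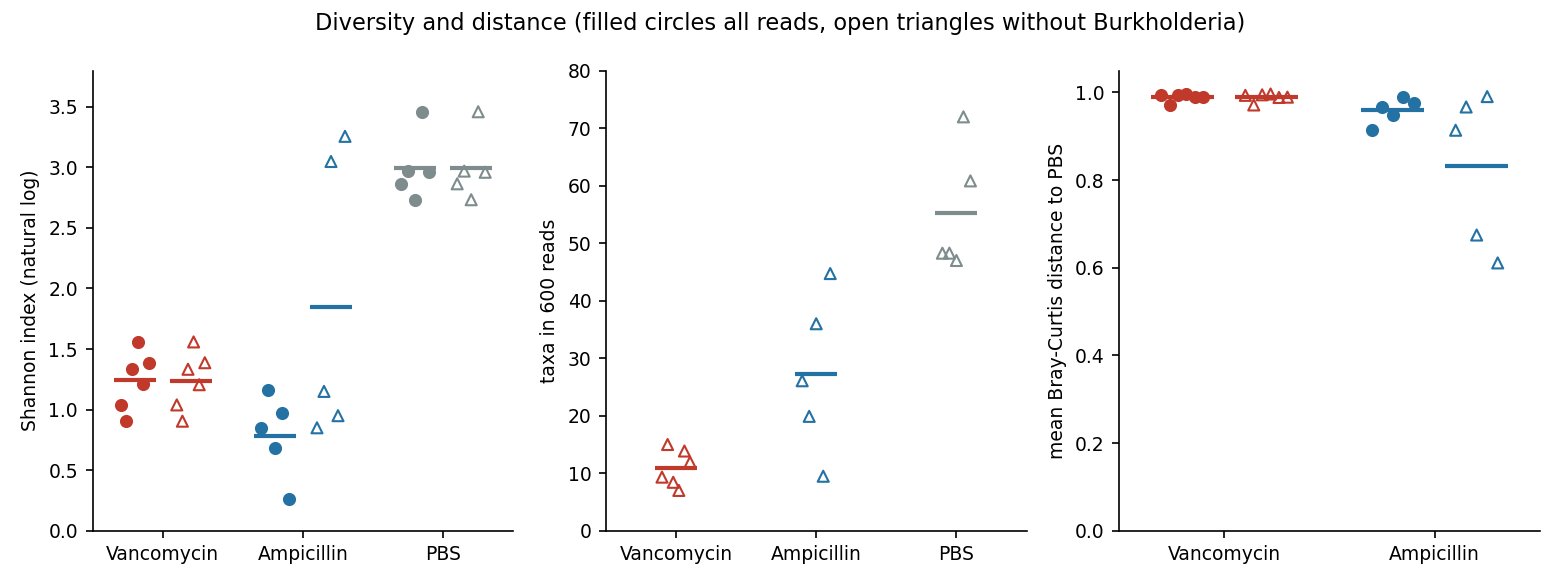
Shannon index, expected number of taxa in 600 reads, and mean Bray-Curtis distance to the 5 PBS libraries (1 point per mouse, bars are means; filled circles all reads, open triangles without Burkholderia). The mean Shannon index over all reads is 1.24 with vancomycin and 0.784 with ampicillin, without Burkholderia it is 1.24 with vancomycin and 1.85 with ampicillin, and 2 ampicillin mice come nearer to PBS once Burkholderia is removed.

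The distance from PBS showed the same 2 libraries. Vancomycin samples had mean distances of 0.971 to 0.996 to the PBS libraries in both compositions. Ampicillin samples had 0.914, 0.967, 0.948, 0.990 and 0.977 over all reads, and 0.914, 0.967, 0.675, 0.990 and 0.611 without Burkholderia. The reads of replicates 3 and 5 other than Burkholderia were thus closer to PBS stool than those of any other antibiotic-treated mouse of these groups.

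Set against the same PBS samples, 63 of 95 genera passed with oral vancomycin (66.3%), of which 7 were higher (7.37%) and 56 lower (58.9%). With oral ampicillin 53 genera passed (55.8%), of which 6 were higher (6.32%) and 47 lower (49.5%). Without Burkholderia 61 of 94 genera passed with vancomycin (64.9%), 6 higher (6.38%) and 55 lower (58.5%), and 41 with ampicillin (43.6%), 5 higher (5.32%) and 36 lower (38.3%). Since both share the PBS mice, values are given side by side only. The log2 difference from PBS was 10.53 with vancomycin and 0.76 with ampicillin for Escherichia_710834, 6.65 and -1.64 for Ligilactobacillus, and 5.91 and -1.42 for Parasutterella, where the ampicillin values did not pass. For Borkfalkia it was 7.92 with vancomycin and 5.76 with ampicillin, and both passed. For CAG-314 it was 0.52 with vancomycin, which did not pass, and 4.36 with ampicillin (limma adjusted p = 0.00086). For Desulfovibrio_R_446353 it was 1.89 with vancomycin (limma adjusted p = 0.0255) and -2.29 with ampicillin (adjusted p = 0.0126), past the threshold in opposite directions, and without Burkholderia neither passed (adjusted p = 0.0572 with vancomycin and 0.125 with ampicillin).

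Before treatment no genus passed the same test between the 2 groups. On day 0, 0 of 85 genera passed in limma (0%), and 6 had an unadjusted p under 0.05. The day 0 fit held 6 libraries of each group, so that ampicillin included a mouse with no day 4 library (242 reads). In all, 2 vancomycin libraries (933 and 695 reads) and 3 ampicillin libraries (242, 455 and 324 reads) were shallow. Escherichia_710834 was at 0 in the day 0 library of all 11 mice. Borkfalkia averaged 0.189% ± 0.187 (SD, n = 6) in the mice later given vancomycin and 0.190% ± 0.272 (n = 5) in those later given ampicillin. Ligilactobacillus averaged 0.0141% in the mice later given vancomycin and 0.0288% in those later given ampicillin, and Burkholderia was at 0 in the 6 vancomycin mice and above 0 in 1 of 5 ampicillin mice.

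The difference between the drugs by mouth was also set against that after intravenous injection, as an interaction in the limma fit. It differed for 6 of 95 genera (6.32%), with 4 more positive by mouth (4.21%) and 2 more negative (2.11%). Ligilactobacillus averaged 5.61% with oral vancomycin and 0.0127% with oral ampicillin, but 0.0421% with intravenous vancomycin (n = 6) and 0.886% with intravenous ampicillin (n = 4), an interaction of 11.39 (SE 1.46, adjusted p = 1.45e-09). Escherichia_710834 averaged 16.3% with intravenous vancomycin and 4.82% with intravenous ampicillin, and the interaction was 8.02 (SE 2.28, adjusted p = 0.0133). Parasutterella averaged 0.325% and 1.13% in the same intravenous groups, with an interaction of 7.63 (SE 1.71, adjusted p = 0.000762). Without Burkholderia 11 of 94 genera differed between routes (11.7%), 3 more positive (3.19%) and 8 more negative (8.51%) by mouth.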

How the data were processed

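The authors deposited a composition table of V4 16S rRNA gene libraries, made with 30 to 35 PCR cycles and read on a MiSeq, per the labels' protocols. Each library's values, a signal, sum to 100000 as the authors deposited them, across 488 taxa with names at 7 ranks. The tools for filtering, clustering and taxonomy were not given in the sources used here. Empty cells (11.6%) were read as 0. Within each library all nonzero values were whole multiples of 1 step (tolerance 0.02 reads or 1e-05 of the value), which gave the reads behind them. In 183 of 198 libraries the lowest nonzero value equalled 2 reads, so depth may be a lower limit, and these reads served for limits and equal-depth measures but not for a count model. Limits of 3 reads cover counting error only.

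Antibiotic, route, day and replicate came from the deposited sample sheets of both runs. No paired analysis across groups was possible because the groups hold different mice, and replicate numbers run within a group. Where 2 libraries of a group differed by no more than sampling noise (chi-square test, libraries of at least 1000 reads), they were averaged. This held for 2 of 182 day 4 pairs and 0 of 25 oral vancomycin or ampicillin pairs, leaving 89 day 4 samples, and the rule was set after values were seen.

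Percent of reads per genus (316) and family (107) were tested with limma 3.58.1 in R 4.3.3 (variance trend, not robust) over genera present in 20% of day 4 samples. The pipeline was tested on simulated data. Shannon index, R2 and richness were tested by exact permutation in Python 3.11.15, adjusted over 5 tests. P-values measure the spread between these mice, and limma borrows the spread of other groups. Genera were named where they averaged 1% in either group, passed with a mean of at least 0.05% (10 rises and 10 falls at most), or were among the 4 most abundant of a taxon list, and Burkholderia always, 44 in all. Families were named by the same limits. The members and the 13 taxon lists were chosen with earlier results of these data known.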

Additional observations from a re-analysis of the deposited data

Results flagged for a closer look

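Single samples far from their group were looked for in 40 groups of values, and 7 stood out. Chance gives about 1 in 20 for separate groups of values. These were not separate, since measures were taken in both compositions and the same library could stand out in several. Vancomycin replicate 2 was the closest of its group to PBS, with a mean Bray-Curtis distance of 0.971 in both compositions. Vancomycin replicate 4 had the lowest Borkfalkia share of its group, 5.13% in both compositions, and was the library with the fewest reads (1151). Ampicillin replicate 5 had the lowest share of Borkfalkia (0% without Burkholderia), of CAG-314 (0% without Burkholderia) and of Pelethenecus (0.0171% of all reads), and was 96.6% Burkholderia.

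For 6 genera the difference between the drugs by mouth departed from that after intravenous injection in the limma interaction. The log2 interaction, oral minus intravenous, was 11.39 for Ligilactobacillus, 8.02 for Escherichia_710834, 7.63 for Parasutterella and 4.02 for Desulfovibrio_R_446353 (adjusted p = 0.0131). It was -8.11 for Alistipes_A_871400 (adjusted p = 0.000222) and -3.48 for Mailhella (adjusted p = 0.0327). Alistipes_A_871400 averaged 0.00742% with oral vancomycin and 0.033% with oral ampicillin, and 1.91% with intravenous vancomycin and 0% with intravenous ampicillin. Mailhella was at 0 in every sample of both oral groups and averaged 0.238% with intravenous vancomycin and 0.00949% with intravenous ampicillin.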

How the results depend on the processing

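Composition R2 passed in both compositions under every alternative run, leave-one-out included. Over all reads 24 genera passed with no presence filter (5 higher, 19 lower), 6 in a fit of the vancomycin and ampicillin groups alone, and 0 by exact permutation per genus (14 unadjusted). Without Burkholderia these were 27 (5 higher, 22 lower), 5 and 0 (14 unadjusted). Thinning to 1000 reads, which drops ampicillin replicates 3 and 5 there, gave 7, and leaving those libraries out gave 9. Leaving out each sample gave 13 to 22, the highest without ampicillin replicate 4. Over all reads 8 families passed with presence in 50% of samples, 8 in the fit of both groups alone and 4 by exact permutation. Without Burkholderia the fit of both groups alone gave 8, thinning 8, leaving out ampicillin replicates 3 and 5 gave 9 and exact permutation 4. The Shannon difference over all reads no longer passed within run ok122 (0.343), as a change from day 0 (0.343, adjusted p = 0.298) or without ampicillin replicates 3 and 5 (0.248). With 1 sample left out it was 0.325 to 0.550 and failed for vancomycin replicate 3, 4, 5 or 6 and ampicillin replicate 3 or 5. Without Burkholderia it passed nowhere, and its sign turned when thinned to 1000 reads (0.283) or without those libraries (0.255). The richness difference was -20.7 to -11.9 with 1 sample left out, missed the threshold without vancomycin replicate 3 or 4 (adjusted p = 0.0529), and was -7.56 without the 2 libraries. The cause was not tested. Leaving out both Burkholderia-filled libraries and thinning to 600 reads, and limits and family calls with samples left out, were chosen after seeing the data.

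A count of 0 allowed up to 0.261% in vancomycin replicate 4 and 0.101% in vancomycin replicate 6, and without Burkholderia up to 0.438% in ampicillin replicate 3 and 0.374% in replicate 5. The groups share run ok122 only in part, and ampicillin holds 2 libraries in SB1.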
